A study of Mus musculus with 90 samples.

Results

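The kisspeptin, GnRH and tachykinin genes are 7 mouse genes of the neuroendocrine control of reproduction, Gnrh1, Kiss1, Kiss1r, Tac1, Tac2, Tacr3 and Pdyn. They were chosen by name, not by their level, and matched by Entrez gene number, and 7 of the 20414 genes in the expression matrix met the rule. Levels were measured by bulk RNA sequencing in 15 tissues of female C57BL/6 mice (C57BL/6J in the study's methods), aged 10 weeks per the sample labels, which had been placed in estrus or in diestrus by methylene blue staining of vaginal cells. There were 3 libraries for each tissue and phase and 90 in all, without a treatment, transgene or deletion, and diestrus served as the reference phase. The labels do not say whether libraries of different tissues that carry the same replicate number came from the same mouse, and the p-values given here measure the spread between these libraries.

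As background, the gonadotropin-releasing hormone encoded by Gnrh1 is released by scattered hypothalamic neurons and drives the pituitary to secrete LH and FSH. Kiss1 encodes kisspeptin, the strongest known stimulus of these neurons, and Kiss1r encodes its receptor, which GnRH neurons carry. Kisspeptin neurons of the arcuate nucleus also make neurokinin B, from Tac2, and dynorphin, from Pdyn, and are known as KNDy neurons. Neurokinin B acts through the receptor encoded by Tacr3 to start their pulses, and dynorphin acts through the kappa opioid receptor to end them. A further kisspeptin population in front of the arcuate nucleus responds to estradiol and is tied to the preovulatory surge. Tac1 encodes substance P and neurokinin A, and is used by many neurons in and outside the hypothalamus, as is Pdyn.

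In these data Tac2, Tac1 and Pdyn were the abundant transcripts of the group in hypothalamus, and Tacr3, Gnrh1, Kiss1 and Kiss1r were low. Of the 7 genes, 6 were called higher in hypothalamus than in cerebrum, against 4.73% of the 13280 genes tested. Among these 6, Gnrh1 and Kiss1 averaged under 1 FPKM in cerebrum and were tested only through their hypothalamus level. Kiss1r was higher by 0.23 on the log2 scale, under the limit of 1 for a call. In limma fits within each tissue none of the 7 was called between estrus and diestrus. A single fit of all 90 libraries called 1 of them in 1 tissue, Gnrh1 in duodenum, where it called 4.38% of the 12410 genes tested. Outside the brain, Gnrh1 was listed at low levels nearly everywhere, Kiss1 had its highest mean in duodenum, and the other 5 genes were low or absent.

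The bases before the transcription start are shown for the genes whose levels were highest in the brain and for Kiss1, so that their sequence can be set beside their tissue pattern. Of the 7 genes, 6 had an entry in the promoter table of RefSeq (GRCm38.p6), and the 250 bases before the start are printed 5′ to 3′ on the strand of the gene. Capitals mark a match on either strand to one of 5 motifs searched, the full palindromic estrogen response element, its half-site AGGTCA, the cAMP response element TGACGTCA, the TATA box TATAAA and the E-box CACGTG.
Kiss1, chr1:133326962-133327211, plus strand: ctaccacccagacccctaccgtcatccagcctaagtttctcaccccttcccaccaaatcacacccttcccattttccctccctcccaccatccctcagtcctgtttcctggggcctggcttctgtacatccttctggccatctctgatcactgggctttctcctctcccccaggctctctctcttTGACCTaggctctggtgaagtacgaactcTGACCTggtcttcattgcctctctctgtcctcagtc
Tac1, chr6:7554811-7555060, plus strand: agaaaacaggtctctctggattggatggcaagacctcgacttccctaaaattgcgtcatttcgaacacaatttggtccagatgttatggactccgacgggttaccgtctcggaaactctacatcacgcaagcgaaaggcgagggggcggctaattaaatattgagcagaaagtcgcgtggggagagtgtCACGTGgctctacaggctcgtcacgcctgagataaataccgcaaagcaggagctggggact
Tac2, chr10:127724228-127724477, plus strand: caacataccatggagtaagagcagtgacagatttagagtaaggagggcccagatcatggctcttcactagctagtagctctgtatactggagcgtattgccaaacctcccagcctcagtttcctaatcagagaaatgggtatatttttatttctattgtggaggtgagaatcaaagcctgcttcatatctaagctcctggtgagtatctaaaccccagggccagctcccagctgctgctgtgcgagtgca
Tacr3, chr3:134828757-134829006, plus strand: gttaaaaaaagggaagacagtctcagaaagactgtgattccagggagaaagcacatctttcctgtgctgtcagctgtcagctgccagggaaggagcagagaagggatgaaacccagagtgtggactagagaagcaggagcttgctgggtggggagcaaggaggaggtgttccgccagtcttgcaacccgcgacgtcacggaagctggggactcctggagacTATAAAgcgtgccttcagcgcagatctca
Pdyn, chr2:129699939-129700188, minus strand: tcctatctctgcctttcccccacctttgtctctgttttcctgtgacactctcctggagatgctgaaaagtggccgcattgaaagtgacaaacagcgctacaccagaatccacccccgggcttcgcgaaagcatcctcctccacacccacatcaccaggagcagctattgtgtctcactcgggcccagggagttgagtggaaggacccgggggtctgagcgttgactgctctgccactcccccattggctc

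The Kiss1 sequence held AGGTCA as its reverse complement, TGACCT, at 2 places whose first bases lay at -36 and -65 from the start. This half-site was present in 14.0% of the 32851 promoter sequences of the table. The Tac1 sequence held CACGTG at -61, which 6.02% of all promoters held, and the Tacr3 sequence held TATAAA at -29, which 12.4% held. No match was found in the windows of Tac2, Kiss1r or either of the Pdyn entries. The full estrogen response element, which is in 0.0639% of all promoters, and TGACGTCA, in 1.55%, were in none of them. The GC content of these windows ran from 44.0% in the second Pdyn entry to 72.8% in Kiss1r, against a median of 52.4% over all promoters. Tac1, Tac2, Tacr3 and Pdyn, whose levels followed each other across tissues, thus had none of these motifs in common within the windows searched.

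Levels are given in FPKM as deposited, fragments scaled to transcript length and to the mapped fragments of the library, so that levels of different genes can be compared per length. The number of reads behind a value is not known. Relative depth was estimated from a low percentile of the values above 0, times length, of 731 short single-transcript genes. The estimate also depends on the levels of these genes in a tissue. It lay between 0.994 and 1.22 times that of the median library in the 12 brain libraries. In the 89 libraries other than estrus replicate 3 of brown adipose tissue it lay between 0.610 and 1.82. That library stood apart at 0.0172 times the median, with 12048 genes listed at 0. No pair of libraries held identical values. Hypothalamus libraries carried the genes of hypothalamic nuclei, and those of cerebrum the cortical genes, with Slc17a7, a glutamate transporter of cortical neurons, at 469 to 675 FPKM in cerebrum and 2.60 to 21.2 FPKM in hypothalamus. Hypothalamus estrus replicate 2 also carried pituitary transcripts, with Prl at 21607 FPKM against 9.29 to 262 FPKM in the other 5 hypothalamus libraries and Gh at 9200 FPKM against 3.65 to 95.7 FPKM. In bulk tissue, fewer cells that express a gene and less RNA per cell cannot be told apart.

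The hypothalamus was examined first, since the GnRH and KNDy neurons lie there. Gnrh1, the output of the system, stood at 4.32, 3.15 and 1.61 FPKM in estrus replicates 1, 2 and 3 and at 3.54, 4.60 and 5.14 FPKM in diestrus replicates 1, 2 and 3. Estrus replicate 3 was the lowest of the 6 libraries, and the phases overlapped. The mean was 3.03 ± 1.36 FPKM in estrus and 4.43 ± 0.81 FPKM in diestrus (SD, n = 3 each). The fitted difference, estrus minus diestrus, was -0.48 on the log2(FPKM + 1) scale (SE 0.24, 95% interval -1.04 to 0.08, limma adjusted p = 0.435), so the difference was not separated from 0. It was -0.20 without estrus replicate 3.

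Kiss1, the kisspeptin precursor, stood at 3.66, 3.58 and 1.93 FPKM in estrus and at 5.05, 3.74 and 2.14 FPKM in diestrus, again by replicate. Replicate 3 was the lowest library of each phase, and the phases overlapped, with diestrus replicates 1 and 2 above every estrus library. The difference was -0.18 (SE 0.26, limma adjusted p = 0.809) and turned to 0.04 without estrus replicate 3 and to 0.04 without diestrus replicate 1. The same replicate 3 libraries were also the lowest for Crh, corticotropin-releasing hormone, named after its values were seen. Crh was at 1.57 and 2.13 FPKM there, against 4.35 to 4.67 FPKM in the other 4. It is 1 of the 16 genes of the hypothalamic nuclei list, whose other genes are not given by library here. Tac1 was instead highest in these replicate 3 libraries. The part of such differences between libraries in the Kiss1 values was not tested.

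Kiss1r, the kisspeptin receptor, was at 2.98, 2.67 and 2.87 FPKM in estrus and 2.54, 3.08 and 2.68 FPKM in diestrus. The 6 libraries thus lay between 2.54 and 3.08 FPKM, and the phase difference was 0.03 (SE 0.08, 95% interval -0.17 to 0.22, limma adjusted p = 0.909). Its sign turned under TPM scaling and quantile normalization. The annotated gene overlaps R3hdm4 on the opposite strand, which was listed at a mean of 45.0 FPKM in hypothalamus and 152 FPKM in cerebrum. Whether the counting used strand is not given in the sources used here, and without strand reads from the overlap cannot be assigned to either gene.

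Tac2, the neurokinin B precursor, was at 59.7, 67.5 and 63.2 FPKM in estrus and at 78.4, 70.5 and 71.1 FPKM in diestrus. All 3 estrus libraries lay below all 3 diestrus libraries, with means of 63.5 ± 3.94 and 73.3 ± 4.37 FPKM (SD, n = 3 each). Of the 7 genes in hypothalamus, 1 thus did not overlap between phases, where 19.6% of the 13400 genes tested in that tissue did not. The fitted difference was -0.21 (SE 0.06, 95% interval -0.34 to -0.07) with a limma adjusted p = 0.275, under the fold limit and not called. It stayed between -0.16 and -0.25 when any 1 library was left out. The exact permutation test gave p = 0.1, two-sided, the smallest that 3 against 3 libraries allow.

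Tac1, the substance P and neurokinin A precursor, was as abundant as Tac2, at 64.8, 63.0 and 74.5 FPKM in estrus and 60.0, 55.7 and 75.0 FPKM in diestrus. The phases overlapped and replicate 3 was the highest library of each, and the difference was 0.09 (SE 0.11, limma adjusted p = 0.759). Pdyn, the dynorphin precursor, was at 23.5, 25.7 and 23.3 FPKM in estrus and 26.2, 24.8 and 29.1 FPKM in diestrus. Its phases overlapped by 1 library pair, and the difference was -0.14 (SE 0.07, limma adjusted p = 0.422).

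Tacr3, the neurokinin B receptor, was at 4.91, 5.57 and 7.60 FPKM in estrus and 5.61, 5.83 and 5.77 FPKM in diestrus. Estrus replicate 3 stood above the other 5 libraries, which lay between 4.91 and 5.83 FPKM. The difference was 0.04 (SE 0.13, limma adjusted p = 0.913), and it was -0.11 without that library.

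**Figure D1:**
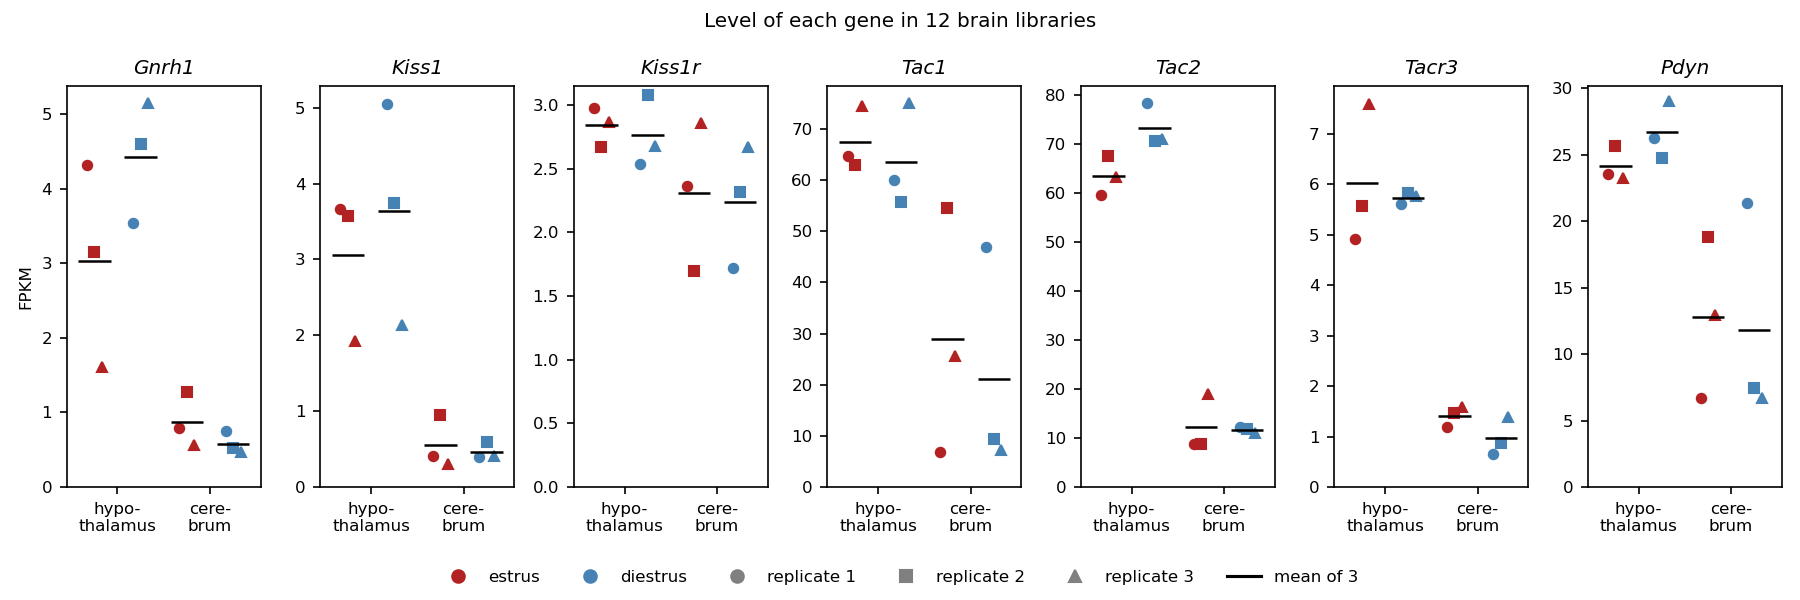
Level in FPKM (vertical axes, linear, from 0, a scale for each gene) of each of the 7 genes in the 6 hypothalamus and 6 cerebrum libraries, red for estrus and blue for diestrus, with a marker for each replicate number and a line at the mean of 3. Tac2 lies at 59.7 to 78.4 FPKM in hypothalamus and 8.75 to 18.9 FPKM in cerebrum, while Kiss1r overlaps between regions and Tac1 and Pdyn scatter widely in cerebrum.

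Within each hypothalamus library the genes of the KNDy neurons stood in a fixed order of level. The FPKM of Tac2 was 15.5 to 33.2 times that of Kiss1, with a median of 18.9, and 8.32 to 14.0 times that of its receptor gene Tacr3. The FPKM of Pdyn was 0.335 to 0.409 times that of Tac2 in the 6 libraries, a narrow range. Kiss1 was 0.672 to 1.99 times the level of Kiss1r, so their order changed between libraries. These are ratios of whole-tissue levels, and hypothalamic neurons other than KNDy neurons are also known to make Tac2 and Pdyn.

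The phase comparison took in each gene whose 6 libraries of the tissue averaged 1 FPKM or more, and a call needed a log2 difference of at least 1 in size and a limma adjusted p of at most 0.05. All 7 genes were tested in hypothalamus and 0 were called, as were 0 of all 13400 genes tested there (0%). At an unadjusted limma p under 0.05 there were 1 of the 7 and 1771 of the 13400 (13.2%). Of the 7 genes, 3 were higher in estrus, with a median difference of -0.14 on the log2 scale, against 7206 of 13400 and a median of 0.01 over all genes tested.

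Cerebrum was the other brain region sampled, and the releasing hormone and kisspeptin precursors were low there. Gnrh1 was at 0.79, 1.27 and 0.56 FPKM in estrus and 0.75, 0.52 and 0.47 FPKM in diestrus. Kiss1 was at 0.41, 0.95 and 0.30 FPKM in estrus and 0.39, 0.60 and 0.41 FPKM in diestrus. Neither reached a mean of 1 FPKM, and neither was tested between phases there. Tac2 was at 8.75, 8.87 and 18.9 FPKM in estrus and 12.3, 11.9 and 11.0 FPKM in diestrus, with estrus replicate 3 apart from the rest.

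The receptor genes differed from each other in cerebrum. Kiss1r was at 2.36, 1.70 and 2.86 FPKM in estrus and 1.72, 2.32 and 2.67 FPKM in diestrus, a range that reached into that of hypothalamus. Tacr3 was at 1.19, 1.47 and 1.59 FPKM in estrus and 0.65, 0.88 and 1.38 FPKM in diestrus, all below the hypothalamus values. The phase difference of Tacr3 was 0.31 (SE 0.16, 95% interval -0.07 to 0.69, limma adjusted p = 1.00), with overlapping phases.

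Tac1 and Pdyn varied several-fold between cerebrum libraries of the same phase. Tac1 was at 6.79, 54.6 and 25.5 FPKM in estrus and 47.0, 9.34 and 7.28 FPKM in diestrus. Pdyn was at 6.69, 18.8 and 12.9 FPKM in estrus and 21.3, 7.48 and 6.66 FPKM in diestrus. Both were high in estrus replicates 2 and 3 and diestrus replicate 1 and low in the other 3 libraries. Both are made by the striatal projection neurons that carry the dopamine receptor Drd1.

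The 8 striatal genes fixed as a list moved with these values. Their summed level was 78.8, 1081 and 457 FPKM in estrus and 1159, 123 and 82.8 FPKM in diestrus, so the same 3 libraries were high. Penk, the enkephalin precursor, ran from 15.5 to 378 FPKM over the 6 libraries. Ppp1r1b, which encodes a dopamine signalling protein, ran from 37.7 to 455 FPKM, and Drd1 from 2.30 to 28.9 FPKM. Tac2 did not follow the striatal sum, with 8.87 and 12.3 FPKM in the 2 libraries highest for it. Kiss1r had its lowest cerebrum values in these same 2 libraries. In hypothalamus the striatal sum was 137 to 160 FPKM in every library. The part of tissue sampling in the Tac1 and Pdyn values of cerebrum was not tested.

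**Figure D2:**
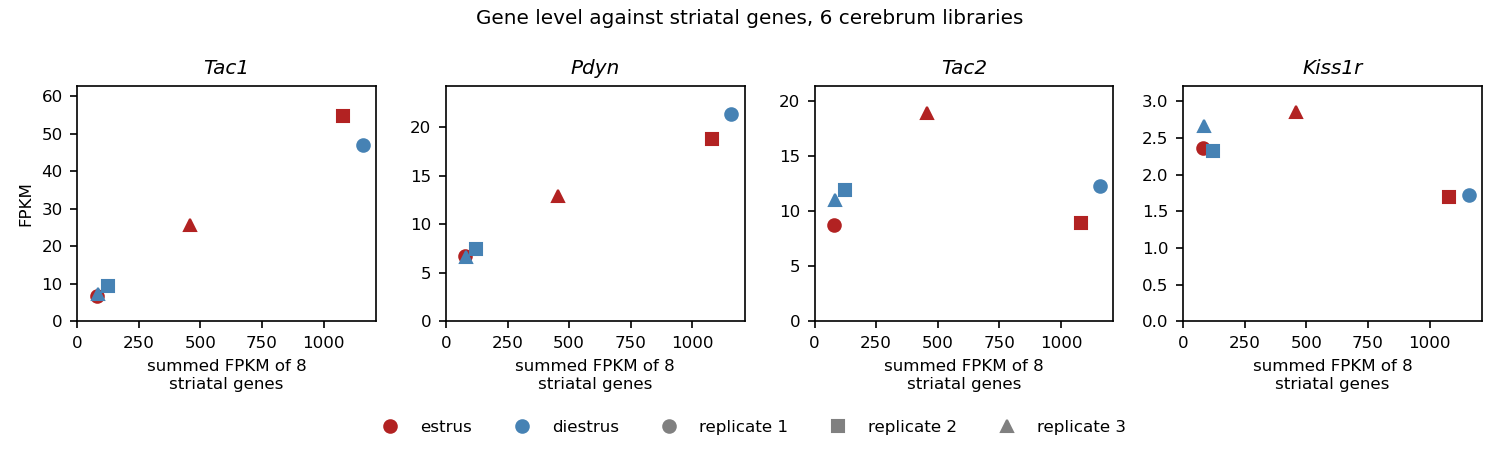
Level of Tac1, Pdyn, Tac2 and Kiss1r (vertical axes, FPKM, from 0) against the summed FPKM of 8 striatal genes (horizontal axes) in the 6 cerebrum libraries, with color for phase and marker for replicate number. Tac1 rises from 6.79 to 54.6 FPKM and Pdyn from 6.66 to 21.3 FPKM toward the libraries with sums of 1081 and 1159 FPKM. Kiss1r is lowest in those libraries, and Tac2 shows no such order.

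The phase differences of Tac1 and Pdyn in cerebrum, 0.49 (SE 0.87) and 0.18 (SE 0.48), had wide intervals of -1.57 to 2.56 and -0.96 to 1.33. Both turned negative without estrus replicate 2, to -0.16 and -0.13. Kiss1r differed by 0.03 (SE 0.17) and Tac2 by -0.03 (SE 0.27), with signs that turned when 1 library was left out. Of the 5 genes tested in cerebrum 0 were called, with 0 of 12951 over all genes (0%).

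Hypothalamus and cerebrum were then compared over their 12 libraries, with phase as a covariate. Of the 7 genes, 6 were called higher in hypothalamus, where 4.73% of the 13280 genes tested were called higher, 4.25% lower and 8.98% in either direction. By the adjusted p alone 7 of the 7 passed, as did 72.3% of all genes tested. The members were named for their role in the hypothalamus, so this count is not independent of the choice. Gnrh1 and Kiss1 averaged 0.73 and 0.51 FPKM in cerebrum. They passed the filter of 1 FPKM over the 12 libraries only through hypothalamus, where they were higher, so their calls add no independent weight to the count. Their median difference was 1.50 on the log2 scale, against 0.17 over all genes tested. The lowest difference over the alternatives, quantile normalization among them, was 0.98 for Pdyn. For the other called genes it lay between 1.21 for Gnrh1 and 2.38 for Tac2, and for Kiss1r it was -0.0014.

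Tac2 differed most, by 2.46 (SE 0.15, limma adjusted p = 1.79e-08), with means of 68.4 ± 6.57 FPKM in hypothalamus and 11.9 ± 3.71 FPKM in cerebrum (SD, n = 6 each). Its receptor gene Tacr3 differed by 1.66 (SE 0.11, limma adjusted p = 4.68e-08), with means of 5.88 ± 0.90 and 1.19 ± 0.36 FPKM. Both genes of the neurokinin B pathway were thus higher in all 6 hypothalamus libraries than in any cerebrum library.

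Kiss1 differed by 1.50 (SE 0.17, limma adjusted p = 6.08e-06) and Gnrh1 by 1.42 (SE 0.19, limma adjusted p = 2.03e-05). On the FPKM scale the ratio of means was 6.57 for Kiss1, which the pseudocount of 1 understates on the log2 scale. Kiss1r differed by 0.23 (SE 0.09, 95% interval 0.02 to 0.43, limma adjusted p = 0.0437), under the fold limit, and the difference was -0.0014 after quantile normalization. Its adjusted limma p was 0.153 under TPM and ran from 0.0143 to 0.101 with 1 library left out. Kisspeptin and its receptor thus differed unequally between the regions, by intervals that did not meet.

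Tac1 differed by 1.80 (SE 0.47, limma adjusted p = 0.00418) and Pdyn by 1.13 (SE 0.26, limma adjusted p = 0.00192). The highest cerebrum library reached 54.6 FPKM of Tac1, just under the lowest hypothalamus library at 55.7 FPKM, and for Pdyn 21.3 against 23.3 FPKM. Of the 7 genes, 6 had every hypothalamus value above every cerebrum value, against 36.4% of all genes tested. The call of Pdyn was lost without cerebrum estrus replicate 1 or diestrus replicate 3, with differences of 0.98 and 0.98 just under the fold limit.

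**Figure D3:**
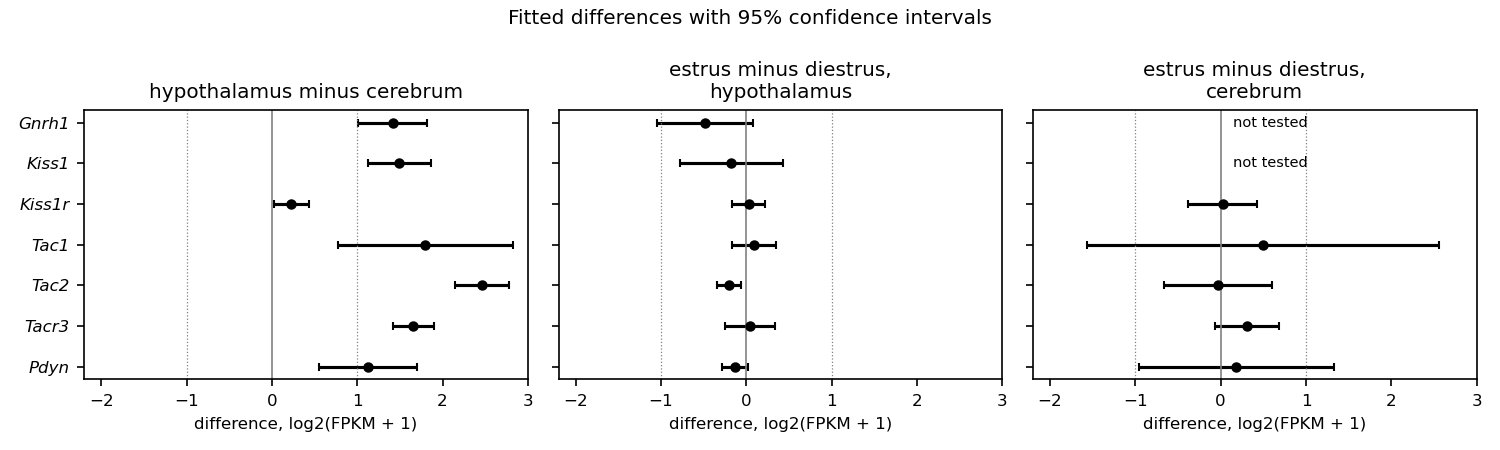
Fitted differences on the log2(FPKM + 1) scale (horizontal axes) with 95% confidence intervals for the 7 genes, for hypothalamus minus cerebrum (left) and for estrus minus diestrus in hypothalamus (middle) and cerebrum (right), with dotted lines at the fold limit of 1. The region differences of 6 genes lie above 1 and that of Kiss1r at 0.23, while each interval of a phase difference except that of Tac2 in hypothalamus includes 0; genes marked not tested had a mean under 1 FPKM.

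Whether the phase difference itself differed between the regions was tested with an interaction term. Gnrh1 gave -0.71 (SE 0.33, limma adjusted p = 0.999), being lower in estrus in hypothalamus and higher in estrus in cerebrum by means of 0.87 and 0.58 FPKM. The other 6 gave between -0.40 for Tac1 and 0.00 for Kiss1r, with adjusted p = 0.999 each. None of the 7 and none of the 13280 genes were called (0%). An unadjusted limma p under 0.05 was reached by 0 of the 7 and by 522 of the 13280.

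Other genes of the same pathways were read from lists. Of 14 receptors and upstream genes of the GnRH axis, 9 were tested between the regions and 4 were called higher in hypothalamus, with a median of 0.90. The most abundant was Npvf, the precursor of the GnRH-inhibiting RFamide peptides, at 9.34 to 14.8 FPKM in hypothalamus and 0 to 0.12 FPKM in cerebrum, a difference of 3.55 (SE 0.10). The progesterone receptor Pgr differed by -0.03 (SE 0.08) and was not called. The estrogen receptor Esr1, named after its values were seen, was called at 1.61 (SE 0.14), with 3.62 to 5.18 FPKM in hypothalamus and 0.37 to 1.77 FPKM in cerebrum. Gnrhr, the pituitary receptor of GnRH, was at 0.92 FPKM in hypothalamus estrus replicate 2, the library with pituitary transcripts, and at 0.04 FPKM or less in the other 5.

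Among the other tachykinin genes, Tacr1, the substance P receptor, was called at 1.06 (SE 0.25), with 3.26 to 4.31 FPKM in hypothalamus. In cerebrum it was at 0.42, 2.86 and 2.25 FPKM in estrus and 2.27, 0.45 and 0.74 FPKM in diestrus, high in the same 3 libraries as Tac1. Tac4 and Tacr2 were at 0.05 and 0.06 FPKM at most in hypothalamus. Of 7 other opioid genes 6 were tested, 4 were called higher and 1 lower in hypothalamus. Penk did not differ beyond its spread, at 0.04 (SE 0.76), Pomc differed by 4.56 (SE 0.69) with 711 FPKM in the library with pituitary transcripts and 22.1 to 68.7 FPKM in the other 5, and Oprk1, the kappa receptor of dynorphin, was called at 1.50 (SE 0.31).

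Genes that cut and finish peptide precursors were abundant in both regions. Of the 11, 10 were tested and 1 was called, Pam, which amidates peptides such as GnRH and kisspeptin, at 1.04 (SE 0.07) with means of 85.7 and 41.4 FPKM. Pcsk1n and Scg5, which regulate the convertases, differed by 0.72 (SE 0.06) and 0.45 (SE 0.05), and Cpe, a carboxypeptidase, by -0.09 (SE 0.07), all under the fold limit. The hypothalamic nuclei list had 14 of 16 genes called higher and 1 lower, and the cortical list 8 of 8 called lower. In hypothalamus 0 genes of these lists were called between phases.

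Across the 15 tissues, Tac1, Tac2, Tacr3 and Pdyn were largely confined to the brain regions, and Gnrh1, Kiss1 and Kiss1r were not. The means of Kiss1 and Kiss1r were still highest in hypothalamus, and that of Gnrh1 in ovary. The brain regions held 91.3% of the summed tissue means of Tac1, 95.5% of Tac2, 92.3% of Tacr3 and 99.2% of Pdyn, against 37.9% of Kiss1, 37.1% of Kiss1r and 14.5% of Gnrh1. Of the 105 pairs of gene and tissue, 15 were listed at 0 in all 6 libraries, all of them among Tac1, Tac2, Tacr3 and Pdyn.

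The order of tissues was tested between neighbours with exact permutation tests of 6 against 6 libraries, down to the last tissue that averaged 1 FPKM or more, over 34 pairs of neighbours with adjusted p-values. Of these 9 differed. For Tac1, Tac2, Tacr3 and Pdyn, hypothalamus was above cerebrum and cerebrum above the next tissue, with ranges that did not overlap and an exact permutation p = 0.00216, the smallest that 6 against 6 allows (adjusted p = 0.0092 each). The next tissue was duodenum for Tac1 (2.86 ± 1.28 FPKM), spleen for Tac2 (1.31 ± 1.06 FPKM), ovary for Tacr3 (0.25 ± 0.05 FPKM) and duodenum for Pdyn (0.08 ± 0.13 FPKM; SD, n = 6 each). Below these, no neighbours differed.

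**Figure D4:**
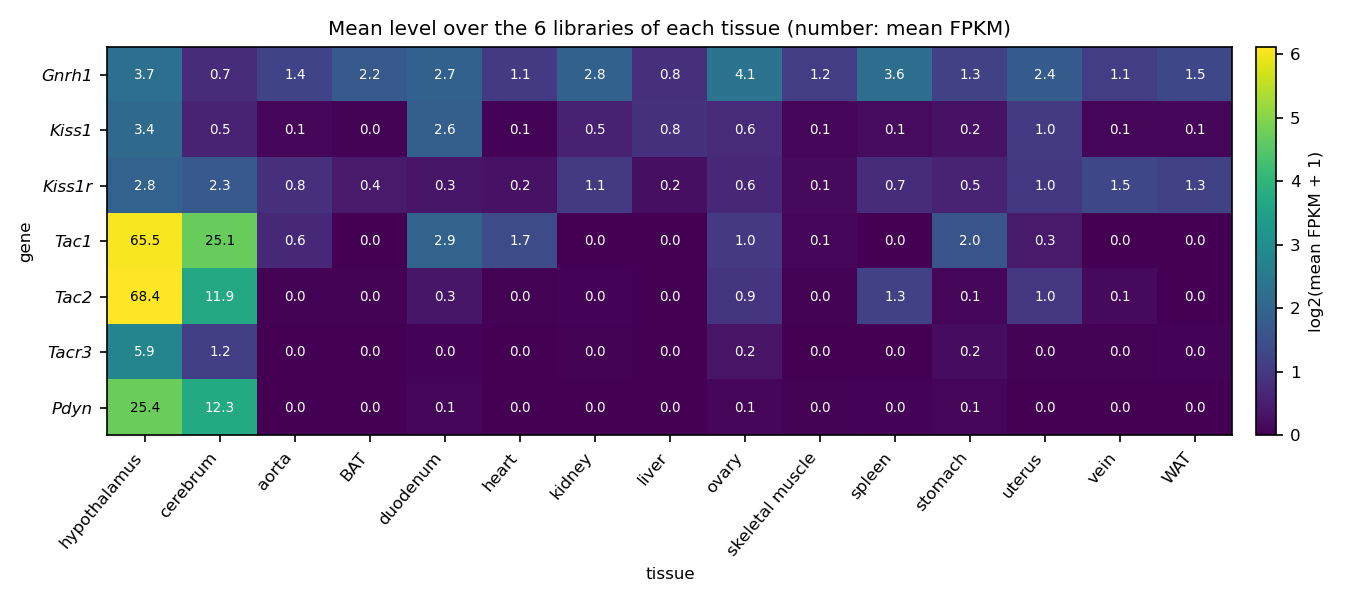
Mean FPKM over the 6 libraries of each tissue (columns, brain regions first) for each gene (rows), with color on the log2(mean FPKM + 1) scale and the mean printed in each cell, 0.0 standing for any mean under 0.05. Tac1, Tac2, Tacr3 and Pdyn are highest in hypothalamus (65.5, 68.4, 5.9 and 25.4 FPKM) and cerebrum, Kiss1 reaches 2.6 FPKM in duodenum, and Gnrh1 is spread over most tissues with 4.1 FPKM in ovary.

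Gnrh1 averaged 1 FPKM or more in 13 of 15 tissues and was listed at 0 in 1 of the 90 libraries, the shallow brown adipose tissue (BAT) estrus replicate 3. Its highest mean was in ovary, at 4.06 ± 1.37 FPKM, with 3.40, 6.48 and 2.95 FPKM in estrus and 3.09, 3.56 and 4.87 FPKM in diestrus. Hypothalamus followed at 3.73 ± 1.26 FPKM and spleen at 3.63 ± 0.74 FPKM (SD, n = 6 each). Ovary estrus replicate 3, at 2.95 FPKM, also held oviduct genes at a sum of 1663 FPKM against 3.43 to 47.4 FPKM in the other 5. None of its 13 pairs of neighbouring tissues differed, so hypothalamus was not separated from ovary (exact permutation, adjusted p = 0.866) or spleen (adjusted p = 0.972). Kctd9 lies 2870 bases away on the same strand, and its tissue means had a Pearson r of 0.12 with those of Gnrh1 over the 15 tissues. Dock5 lies 2695 bases away on the opposite strand, with a Pearson r of 0.43. The part of reads from either neighbour in the Gnrh1 values was not tested.

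Kiss1 was highest in hypothalamus at 3.35 ± 1.16 FPKM and next in duodenum at 2.59 ± 1.26 FPKM (exact permutation, adjusted p = 0.474). Uterus followed at 1.05 ± 0.99 FPKM, with a median of 0.78 FPKM and 1 library at 2.97 FPKM, and was not separated from liver at 0.84 ± 0.29 FPKM (SD, n = 6 each; exact permutation, adjusted p = 0.959). Liver and all tissues below it had means under 1 FPKM. In duodenum it was at 1.57, 4.94 and 3.06 FPKM in estrus and 1.95, 2.09 and 1.90 FPKM in diestrus, with estrus replicate 2 the highest. The annotated Kiss1 overlaps Golt1a, a Golgi transport gene, on the same strand, and Golt1a had means of 46.2 FPKM in duodenum, 10.1 FPKM in liver and 0.0783 FPKM in hypothalamus. Golt1a was also listed at 6.84 FPKM in kidney and 3.10 FPKM in uterus, and its tissue means had a Pearson r of 0.55 with those of Kiss1. Gm28040, which also overlaps Kiss1 on the same strand, is not among the genes listed. The share of Kiss1 in duodenum or any other tissue that may come from reads of these overlaps was not tested.

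Kiss1r had means of at least 1 FPKM in 5 tissues, with 2.80 ± 0.21 FPKM in hypothalamus, 2.27 ± 0.48 FPKM in cerebrum, 1.48 ± 0.27 FPKM in vein, 1.29 ± 0.39 FPKM in white adipose tissue (WAT) and 1.06 ± 0.21 FPKM in kidney (SD, n = 6 each). The step from cerebrum to vein passed (exact permutation, adjusted p = 0.0409) and the other 4 did not. Ligand and receptor were not ordered alike over tissues, with a Pearson r of 0.31 between the tissue means of Kiss1 and Kiss1r over 15 tissues.

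Between the members, tissue means of Tac1, Tac2, Tacr3 and Pdyn had Pearson r from 0.92 to 0.97 over 15 tissues, which rest on the 2 brain regions, and those of Gnrh1 had r from 0.09 to 0.45 with the others. Among 17209 genes, the 3 closest in tissue pattern to Tac2 were Tex52, Tmem91 and Pnoc, with r of 0.996, 0.990 and 0.989. For Tacr3 they were Npbwr1, Adcyap1 and Klhl1 (r of 0.994 each), for Pdyn Cbln4, Htr2c and Otx2 (r of 0.9998, 0.9995 and 0.9993) and for Tac1 Nkx2-2, Grin2d and Gm9839 (r of 0.97, 0.96 and 0.96). For Kiss1r they were Snhg11, Gm40365 and Cdk14 (r of 0.96, 0.94 and 0.94), for Kiss1 Odf3b, 4932438H23Rik and Ucn3 (r of 0.82, 0.82 and 0.80), and for Gnrh1 Abraxas2, Tnrc6a and Dynlt1a (r of 0.85, 0.82 and 0.81). Pnoc, the nociceptin precursor of the opioid family, had means of 23.1 FPKM in hypothalamus and 6.28 FPKM in cerebrum.

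Over all tissues, brain regions included, 34 pairs of gene and tissue were tested between phases and 0 were called by limma within tissues. The call rate over all genes was 0% in each tissue with a tested pair except skeletal muscle (0.00936%) and spleen (0.00798%). An unadjusted limma p under 0.05 was reached in 2 of the 34 pairs, Tac2 in hypothalamus and Gnrh1 in duodenum. Over all genes tested that share was 2.87% to 20.8% by tissue, with 13.2% in hypothalamus and 13.5% in duodenum. The phases did not overlap in 3 of the 34, these and Tac1 in duodenum, and over all genes between 7.8% and 30.1% did not overlap in the 14 tissues with a tested pair.

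In duodenum, Gnrh1 was at 4.56, 4.49 and 2.91 FPKM in estrus and 1.70, 1.01 and 1.71 FPKM in diestrus. The difference was 1.01 (SE 0.24, 95% interval 0.43 to 1.58, limma adjusted p = 0.368), with means of 3.99 ± 0.93 and 1.47 ± 0.40 FPKM (SD, n = 3 each). Phases did not overlap for 26.6% of the 12410 genes tested in duodenum. One fit of all 90 libraries, which shares a spread over tissues, called it with an adjusted p = 0.0177, as it did 4.38% of the genes tested there. Leaving out 1 library took the difference from 0.86 to 1.17.

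Tac1 in duodenum went the other way, at 2.86, 0.83 and 2.17 FPKM in estrus and 4.11, 4.30 and 2.87 FPKM in diestrus. The lowest diestrus library was 0.01 FPKM above the highest estrus library, and the difference was -0.74 (SE 0.32, limma adjusted p = 0.371). Summed levels of cell type genes were set beside these values. The 5 genes of T cells and B cells summed to 68.5 to 392 FPKM in estrus and 28.1 to 48.2 FPKM in diestrus, and the 7 enteroendocrine genes, Gip, Cck and Sct being the most abundant, to 73.4 to 180 FPKM in estrus and 182 to 228 FPKM in diestrus. The 8 genes of enteric and peripheral neurons, of which Ret, Calca, Chat, Th and Nos1 were below 1 FPKM throughout, summed to 5.74 to 16.4 FPKM in estrus and 15.5 to 16.4 FPKM in diestrus. The sums of the enteric and peripheral neuron genes thus overlapped between phases. Of the genes tested, 5 of 5 T and B cell genes and 1 of 6 enteroendocrine genes, Sct, were higher in estrus. Over all genes tested in duodenum, 4065 of 12410 were. The part of these cell types in the Gnrh1 and Tac1 values was not tested.

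**Figure D5:**
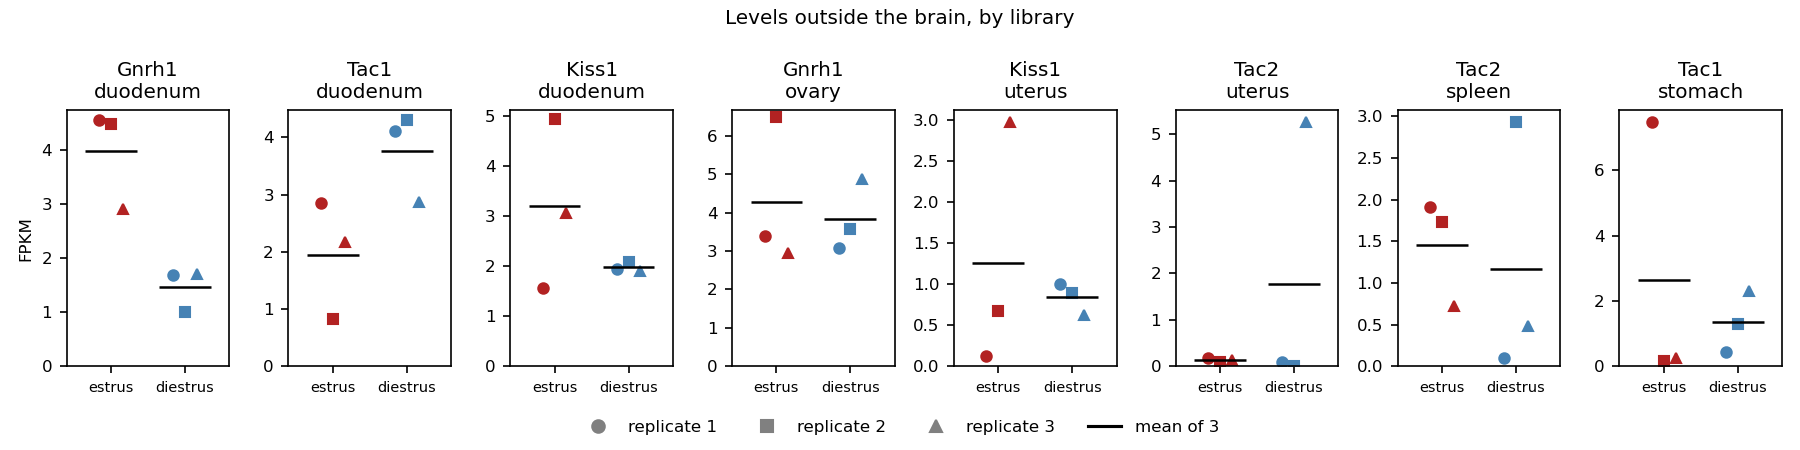
Level in FPKM (vertical axes, from 0, a scale for each panel) of genes in tissues outside the brain, by phase (horizontal axes, red estrus and blue diestrus), with a marker for each replicate number and a line at the mean of 3. Gnrh1 and Tac1 in duodenum separate by phase in opposite directions, while Tac2 in uterus and Tac1 in stomach each rest on 1 library, at 5.25 and 7.47 FPKM.

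Some values in stomach and uterus rested on 1 library. Tac1 in stomach was at 7.47, 0.17 and 0.25 FPKM in estrus and 0.45, 1.29 and 2.31 FPKM in diestrus. Estrus replicate 1 also held the genes of enteric and peripheral neurons, summing to 24.1 FPKM against 0.82 to 2.83 FPKM in the other 5, with Vip at 11.4 FPKM. In uterus, Tac2 was at 5.25 FPKM in diestrus replicate 3 and at 0.18 FPKM or less in the other 5 libraries. That library held Calca, the CGRP precursor of sensory nerves, at 5.86 FPKM against 0.07 to 0.42 FPKM.

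Kiss1 in uterus was at 0.13, 0.67 and 2.97 FPKM in estrus and 1.00, 0.89 and 0.63 FPKM in diestrus, and Tac1 at 1.98 FPKM in estrus replicate 3 and 0 to 0.12 FPKM in the others. The sum of the oviduct genes was high in this same estrus replicate 3, at 2899 FPKM against 58.9 to 186 FPKM in the other 5. Most of it was Ovgp1, the oviduct glycoprotein, at 2554 FPKM. Pax8 of the same list was instead highest in estrus replicate 1, at 95.8 FPKM, with 91.1 FPKM in estrus replicate 3. The phase difference of Kiss1 in uterus was 0.09 (SE 0.54, limma adjusted p = 0.977). The part of oviduct tissue in these values, or for Kiss1 that of reads from the overlap with Golt1a, was not tested.

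Tac2 in spleen was at 1.91, 1.73 and 0.72 FPKM in estrus and 0.10, 2.93 and 0.49 FPKM in diestrus, a wide spread in both phases, with the T and B cell genes summing to 1565 to 2052 FPKM in every library. The difference was 0.36 (SE 0.46, limma adjusted p = 0.941). In ovary, where Tac1 and Gnrh1 were tested, the differences were 0.03 (SE 0.30) and 0.08 (SE 0.27). Gnrh1 was tested in 13 tissues and differed by between -0.57 in BAT (SE 0.59), where estrus replicate 3 was listed at 0, and 1.01 in duodenum. Kiss1r differed by -0.06 in vein (SE 0.17), 0.22 in WAT (SE 0.20) and 0.07 in kidney (SE 0.16). Tac1 in heart, at 1.13 to 2.65 FPKM, differed by 0.16 (SE 0.19).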

How the data were processed

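Total RNA of 15 tissues was sequenced on BGISEQ-500. The authors filtered reads with SOAPnuke, aligned them with Bowtie2 2.2.5 to GRCm38.p5 transcripts and estimated abundance with RSEM 1.2.8. They deposited FPKM per gene, without counts, so count tests were not used and depth is known only relatively. FPKM is scaled within a library, so abundant transcripts lower all others, and overlapping genes share reads by estimate.

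The members and gene lists were chosen with earlier results of these data known. Genes named are the 7 members, the 3 most abundant of a list over the brain libraries or in the tissue described, and the 3 genes of highest Pearson r over 15 tissue means. Crh, Esr1, Oprk1, Pam, Drd1, Calca and Gnrhr were named after their values were seen, and some items that the rule names are not reported here.

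Models with an intensity trend were fitted with limma 3.58.1 (R 4.3.3) to log2(FPKM + 1), per tissue for phase and over 12 libraries for region with phase as covariate, keeping genes that averaged 1 FPKM or more in those libraries, with Benjamini-Hochberg adjustment over all genes tested. Fits were tested on simulated data. Exact permutation tests compared neighbouring tissues (Python 3.11.15). Replicate numbers were not used as pairs: same-numbered hypothalamus libraries of the phases had deviations correlated at -0.16, -0.02 and -0.11, and those of hypothalamus and cerebrum at 0.0777, 0.0758 and 0.0095 in estrus and 0.147, 0.203 and 0.235 in diestrus. Alternatives were the pseudocount of 0.1, no filter, TPM, quantile normalization, calls without fold limit, the replicate block, leaving out libraries and 1 fit of 90 libraries. Promoter sequences came from RefSeq (GRCm38.p6). The study's methods give another age for the mice than the labels do. The latter was used.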

Additional observations from a re-analysis of the deposited data

Results flagged for a closer look

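Among 43 pairs of gene and tissue with a library at 1 FPKM or more, 6 had a library whose gap to the nearest of the others exceeded the 95% limit of Dixon's test for 6 values. Chance flags about 1 in 20 groups that are not chosen by their values, and phases were pooled for this. These pairs were chosen by their highest library, which favours a flag on that library, so the rate does not hold for them. Tac1 and Tac2 in uterus entered only through the library that was flagged. In hypothalamus, Tacr3 in estrus replicate 3 stood at 7.60 FPKM, above 4.91 to 5.83 FPKM in the other 5. In cerebrum, Tac2 in estrus replicate 3 stood at 18.9 FPKM, above 8.75 to 12.3 FPKM. In uterus, Tac2 in diestrus replicate 3 stood at 5.25 FPKM, above 0 to 0.18 FPKM. Kiss1 and Tac1 in uterus estrus replicate 3 stood at 2.97 and 1.98 FPKM, above 0.13 to 1.00 FPKM and 0 to 0.12 FPKM. In stomach, Tac1 in estrus replicate 1 stood at 7.47 FPKM, above 0.17 to 2.31 FPKM. No phase difference of a member was called as different between hypothalamus and cerebrum.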

How the results depend on the processing

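In the main fits 34 pairs of gene and tissue were tested between phases and 0 were called. The pseudocount of 0.1, TPM, quantile normalization, adjusted p alone and leaving out any 1 library also gave 0 (0 to 0). Without the filter, which takes in more than these 34 pairs, 0 were called as well. The exact permutation test, run on all 105 pairs, also gave 0, but could call no pair, since 3 against 3 libraries give no p under 0.1. One fit of all 90 libraries called 1, Gnrh1 in duodenum, where it called 4.38% of the 12410 genes tested. The 6 genes called between regions were 5 to 6 when 1 library was left out and 6 or 7 otherwise. The neighbour pairs that differed fell from 9 to 0 without replicate 1, 2 or 3 (0 to 0), where 4 against 4 libraries cannot give an exact permutation p under 0.0286.

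Same-numbered libraries did not all correlate over 0.1 between the phases of any tissue, and between regions they did in diestrus but not in estrus. The replicate block called 0 pairs between phases, 6 genes between regions and 0 in the interaction, and changed no call. The FPKM hold no counts, so precision at low levels such as Kiss1 in cerebrum is limited and unknown.

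Signs that turned were all of differences not called. For phase, Kiss1r was -0.0247 in cerebrum under quantile normalization, and -0.0259 and -0.00055 in hypothalamus under TPM and quantile normalization. Tacr3 in hypothalamus was -0.0210 under TPM and -0.11 without replicate 3 of both phases, a choice made after seeing the data. With 1 library left out, differences ran from -0.0935 to 0.17 for Kiss1r, -0.16 to 1.29 for Tac1, -0.37 to 0.14 for Tac2 and -0.13 to 0.67 for Pdyn in cerebrum. In hypothalamus they ran from -0.0138 to 0.0886 for Kiss1r, -0.11 to 0.16 for Tacr3 and -0.43 to 0.0436 for Kiss1. Between regions, Kiss1r was -0.0014 after quantile normalization. In the interaction, Kiss1r was -0.0433 under TPM and ran from -0.14 to 0.12 with 1 library left out, Tac1 from -1.19 to 0.25 and Tac2 from -0.35 to 0.17. By Spearman's rho, the 3 genes nearest in tissue pattern shared 2 with those by Pearson's r for Kiss1r and 0 for the other 6 genes. The causes were not tested.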
